A study of Mus musculus with 2 samples.

Results

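The cytosolic ribosomal protein genes are the 83 genes, of 23284 gene symbols listed for each library, whose symbol is Rpl or Rps followed by a number, with an optional ending a, x, l or l1, together with Rplp0, Rplp1, Rplp2 and Rpsa. They comprise 31 genes of the small subunit, 46 of the large subunit and 6 paralogs (Rpl3l, Rpl7l1, Rpl10l, Rpl22l1, Rpl39l and Rps27l). The symbols alone chose them, and pseudogene rows and the Rps6k kinases were left out. Fau, Gnb2l1 and Rpl36al, which encode further ribosomal proteins or a near copy of one, lie outside this rule and are described separately. RNA-seq was done on LSK CD48- cells (cells without lineage markers or CD48 that carry Sca-1 and c-Kit, a fraction enriched for hematopoietic stem cells) from the fetal liver (FL) of mouse fetuses at E14.5. WT fetuses gave 1 library and ESAM-null fetuses 1, the latter homozygous for a germline knockout of Esam, an adhesion molecule of endothelial cells and stem cells. The sources used here do not say how many fetuses or cells stand behind each library, and the labels mention a methylcellulose culture of the sorted cells whereas the study's text describes freshly sorted ones.

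A ribosome consists of a small subunit, which decodes mRNA, and a large subunit, which joins amino acids, and each is built from ribosomal RNA and one copy of most ribosomal proteins. Most of the proteins are thus needed in equal amounts. Their mRNAs are among the most abundant in growing cells. Most of these mRNAs begin with a run of pyrimidines at the cap, the terminal oligopyrimidine (TOP) start, through which mTOR signaling sets their translation. Hematopoietic stem cells keep protein synthesis low, and loss of 1 copy of certain ribosomal protein genes causes Diamond-Blackfan anemia, a failure of erythroid progenitors.

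Values are the deposited FPKM (read fragments per gene, divided by exon length and by library depth), so that levels can be compared between genes of different length. Roughly 9355280 WT reads and 10279200 ESAM-null reads stood behind them, as estimated from the steps between low values. With 1 library per genotype there is no replicate error and no p-value. Exact (Clopper-Pearson) 95% intervals from approximate reads are therefore given for selected ratios, and they cover counting error only. Esam itself was 117.6 FPKM in WT against 12.1 FPKM in ESAM-null. All 7 stem cell markers looked at were above 0 in both libraries, with a summed level of 635 FPKM in WT against 634 FPKM in ESAM-null. Single markers went both ways, with ratios from 0.789 for Hlf to 1.58 for Slamf1, so the equal sums do not show equal stem cell content. Cd48, the marker the sort excludes, was listed at 16.6 and 22.0 FPKM.

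The ribosomal protein genes were higher in the ESAM-null library almost without exception, by similar factors in both subunits. Their summed level was 119037 FPKM in WT against 188150 FPKM in ESAM-null, a ratio of 1.58. Of the 81 members with at least 1 FPKM in 1 library, 80 were higher in ESAM-null, against 50% of the 12066 genes that passed this filter. A level at least 1.5-fold higher was seen for 57 members, against 17.4% of those genes, and no member was at least 1.5-fold lower, against 21.8%. These shares differ with level. Of the 1332 genes with a mean of at least 100 FPKM, 83.9% were higher in ESAM-null and 23.7% at least 1.5-fold higher. Only 35 of the 1332 were at least 1.5-fold lower. The median ratio of the 81 members was 1.62, or 0.70 on the log2 scale, with quartiles of 0.56 and 0.76. The size of this difference rests on how the libraries are scaled: the total of all FPKM was itself higher in ESAM-null (911736) than in WT (751784), and with both totals set to 1000000 the median log2 ratio was 0.42 and 6 members were at least 1.5-fold higher. The direction was kept, with 79 members higher and 2 lower on that scale. Of all genes, 657 were then at least 2-fold higher and 2210 lower, against 1 member higher. The share of all genes at 1.5-fold is given on the original scale only.

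As a share of all FPKM, the members made up 15.8% of the WT library and 20.6% of the ESAM-null library, 1.30 times the WT share. They accounted for 43.2% of the difference in total FPKM between the libraries. In bulk RNA, more ribosomal protein mRNA per cell and more cells of a type rich in these mRNAs cannot be told apart.

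**Figure D1:**
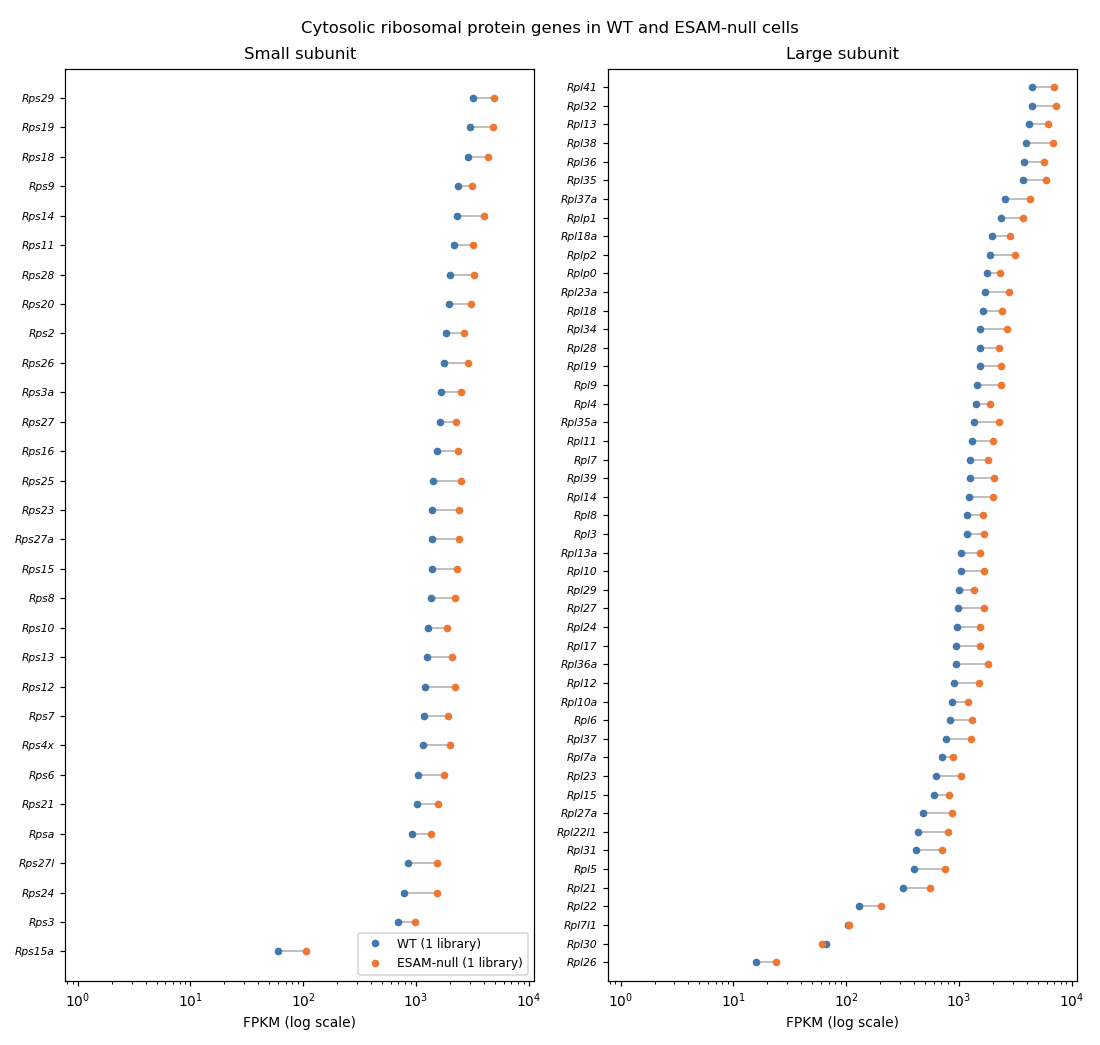
FPKM (log axis) of ribosomal protein genes in the WT library (blue) and the ESAM-null library (orange), with small subunit genes on the left and large subunit genes on the right, paralogs included, in order of the WT level. Rpl3l, Rpl10l and Rpl39l, each under 1 FPKM in at least 1 library, are not drawn. The orange point lies to the right of the blue point for every gene drawn except Rpl30.

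Most of these genes were expressed at very high levels. The mean of both libraries was at least 100 FPKM for 77 members, at least 500 FPKM for 74 and at least 1000 FPKM for 66. Among genes with transcripts of at least 300 bases, members held 56 of the 100 highest places in WT and 60 in ESAM-null. The order of the members was nearly the same in both libraries, with a Spearman correlation of 0.98 between their levels over the 77 members with a mean of at least 100 FPKM. These points share library, depth and transcript length, and the correlation is given as a description.

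The highest levels belonged mainly to short proteins of the large subunit. Rpl32 was 4415 FPKM in WT against 7233 FPKM in ESAM-null (ratio 1.64, 95% interval 1.60 to 1.67). Rpl41, which encodes the shortest ribosomal protein, a highly basic peptide, was 4417 and 6963 FPKM (ratio 1.58). Rpl38, known in the mouse for skeletal defects when 1 copy is lost, was 3950.5 and 6877 FPKM (ratio 1.74). These were followed by Rpl13 (4211 and 6126 FPKM), Rpl35 (3702 and 5901 FPKM) and Rpl36 (3786 and 5677 FPKM), with ratios of 1.45, 1.59 and 1.5. The highest members of the small subunit were Rps29, at 3189.7 and 4928 FPKM, and Rps19, at 3040.3 and 4857 FPKM. The ratios of these 8 most abundant genes lay between 1.45 and 1.74, and so within the range of the less abundant members.

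At the other end were a few members far below the rest. Rpl10l, a retrogene of Rpl10 known from testis, was listed at 0 in both libraries. Rpl3l, the striated muscle paralog of Rpl3, was 0.383 FPKM in WT, about 3 reads, and 0 in ESAM-null, so no fold is given. Rpl39l was 0.355 and 4.57 FPKM, about 1 read against 16, a ratio of 12.9 with an interval of 2.26 to 611, and 4.11 with a pseudocount of 1 FPKM. Rpl39l was the only member at least 2-fold different between the libraries, against 20.2% of all genes with at least 1 FPKM in 1 library. Genes at high levels rarely differed that much. Of the 1332 genes with a mean of at least 100 FPKM, 21 were at least 2-fold higher and 23 lower. No member at that level was past 2-fold. The core genes Rpl26 (15.9 and 23.9 FPKM), Rpl30 (66.8 and 61.0 FPKM) and Rps15a (59.4 and 105.5 FPKM) were also low. Their products are needed at the same number as those of Rpl32 or Rpl41, yet the WT levels of the core genes spanned 277-fold, from Rpl26 to Rpl41. Without Rpl26, which had about 48 reads in WT and shared 57.5% of its 75-base stretches with other genes, the span was 74.4-fold.

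The start regions of some members with high levels, large ratios or low levels are shown, since a shared pyrimidine start is the best known sequence feature of these genes. The sequences are from RefSeq on GRCm38.p6 and run from 35 bases before the annotated start to 15 bases of transcript, 5′ to 3′ on the strand of the gene. Capitals mark each run of pyrimidines, that is, a C followed by at least 6 bases that are each C or T, searched on the gene's strand within 20 bases on either side of the start, of which 15 after it are shown. Rpl41 lies at chr10:128549154-128549203 on the minus strand, Rpl13 at chr8:123102315-123102364 on the plus strand, Rpl35 at chr2:39005117-39005166 on the minus strand and Rpl38 at chr11:114668545-114668594 on the plus strand, and these have high levels. Rps24 at chr14:24490643-24490692 (plus), Rps12 at chr10:23787195-23787244 (minus), Rpl36a at chrX:134585619-134585668 (plus) and Rpl5 at chr5:107900493-107900542 (plus) have the largest ratios among the core genes, and the first of 2 entries is shown for Rps24. Rpl26 at chr11:68901531-68901580 (plus) and Rps15a at chr7:118116133-118116182 (minus) have the lowest levels of the core genes with an entry. Rpl22l1 at chr3:28805473-28805522 (plus) and Rpl39l at chr16:10170193-10170242 (plus) are paralogs.
Rpl41: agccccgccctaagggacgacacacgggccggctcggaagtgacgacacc
Rpl13: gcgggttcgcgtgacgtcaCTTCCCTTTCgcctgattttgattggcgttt
Rpl35: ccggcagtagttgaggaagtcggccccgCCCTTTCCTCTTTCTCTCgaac
Rpl38: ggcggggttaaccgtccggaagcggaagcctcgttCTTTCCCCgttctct
Rps24: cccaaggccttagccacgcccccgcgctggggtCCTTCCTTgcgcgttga
Rps12: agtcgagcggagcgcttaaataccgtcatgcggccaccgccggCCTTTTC
Rpl36a: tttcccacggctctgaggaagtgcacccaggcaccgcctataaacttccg
Rpl5: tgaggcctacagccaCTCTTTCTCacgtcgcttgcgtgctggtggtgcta
Rpl26: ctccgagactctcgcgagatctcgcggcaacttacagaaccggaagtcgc
Rps15a: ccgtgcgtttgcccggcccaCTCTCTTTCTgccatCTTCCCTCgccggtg
Rpl22l1: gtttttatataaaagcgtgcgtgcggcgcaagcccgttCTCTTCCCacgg
Rpl39l: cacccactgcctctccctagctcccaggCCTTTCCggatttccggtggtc

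A pyrimidine run was found in 35 of the 62 members with a promoter entry (56.5%), against 21.4% of all 27025 genes with an entry and 19.9% of 883 other genes with a mean of at least 100 FPKM. It was present in Rps24 and Rps15a and absent from this window in Rpl41, Rpl36a and Rpl26. The members with a run had a median log2 ratio of 0.71 (35 genes) and those without 0.70 (25 genes). The letters CCGGAA, the core of ETS factor motifs, were searched on both strands from 100 bases before to 20 bases after the start and were found in 24 members (38.7%), against 10.4% of all genes and 27.3% of the other abundant genes. The median log2 ratio was 0.67 with CCGGAA and 0.71 without. A match is a description of the letters, and annotated starts can differ from those used in these cells.

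All 31 small subunit genes were higher in ESAM-null, 24 of them (77.4%) at least 1.5-fold. Among all genes with a mean of at least 100 FPKM the shares were 83.9% and 23.7%. They were 98.3% and 44.2% among other genes with a mean of at least 500 FPKM and transcripts of 300 to under 1000 bases. The small subunit genes had a median log2 ratio of 0.70, and their ratios ran from 1.35 for Rps9 to 1.95 for Rps24. Rps24, mutated in Diamond-Blackfan anemia, was 784 FPKM in WT against 1532 FPKM in ESAM-null (interval of the ratio 1.85 to 2.06). Rps12 was 1195 and 2206 FPKM (ratio 1.85). Rps6, the small subunit protein phosphorylated through mTOR, was 1034 and 1768 FPKM (ratio 1.71), and Rps4x, the X-linked member, was 1158 and 1995 FPKM (ratio 1.72). Rps27a, which is made as a fusion to ubiquitin, was 1391 and 2408 FPKM (ratio 1.73). Rps9 (2337 and 3146 FPKM) was the member of this subunit that differed least. Rpsa, which was first described as a laminin receptor, had a ratio of 1.49.

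Of the 46 large subunit genes, 45 were higher in ESAM-null and 30 (65.2%) were at least 1.5-fold higher, with a median log2 ratio of 0.66. Among all genes with a mean of at least 100 FPKM the shares were 83.9% and 23.7%. They were 98.3% and 44.2% among other genes with a mean of at least 500 FPKM and transcripts of 300 to under 1000 bases. Rpl36a was 938 FPKM in WT against 1814 FPKM in ESAM-null (ratio 1.93, interval 1.84 to 2.03). Rpl5 was 404 and 751 FPKM (ratio 1.86) and its partner Rpl11 1303 and 2022 FPKM (ratio 1.55). Rpl5 and Rpl11 form a particle with a small ribosomal RNA that can bind Mdm2 and thereby stabilize p53. Rpl27a was 478 and 863 FPKM (ratio 1.80). The smallest differences were those of Rpl30 (ratio 0.913, interval 0.744 to 1.12, which includes 1), Rpl7a (707 and 888 FPKM, ratio 1.26), Rplp0 (ratio 1.30), Rpl4 (1434 and 1881 FPKM, ratio 1.31), Rpl15 (605 and 821 FPKM, ratio 1.36) and Rpl29 (999.6 and 1365 FPKM, ratio 1.37). Rpl30 was the only member with a lower value in ESAM-null among those that reached 1 FPKM.

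The summed levels of the subunits differed by nearly the same factor, 1.59 for the small and 1.57 for the large subunit. The stalk of the large subunit, which recruits translation factors to the ribosome, was represented by Rplp0 at 1779.7 and 2306 FPKM, Rplp1 at 2384 and 3681 FPKM and Rplp2 at 1878 and 3166 FPKM. The ratio of Rplp0 (1.30) lay below those of Rplp1 (1.54) and Rplp2 (1.69), although the proteins sit together in one complex with more copies of Rplp1 and Rplp2 than of Rplp0. The interval of Rplp0 (1.27 to 1.32) did not overlap that of Rplp1 (1.498 to 1.59), but intervals of counting error do not include the variation between libraries.

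Among the paralogs, the 3 with substantial levels did not differ to the same extent. Rpl22l1 was 436 FPKM in WT against 804 FPKM in ESAM-null (ratio 1.85), and its partner Rpl22, a core gene whose product is known to restrain Rpl22l1, was 131 and 202 FPKM (ratio 1.54). Rpl22l1 was thus more abundant than Rpl22 in both libraries. Rps27l, a p53 target, was 858 and 1551 FPKM (ratio 1.81), and Rps27 was 1623 and 2273 FPKM (ratio 1.40). Rpl7l1, which acts in ribosome biogenesis, was 103 and 107 FPKM (ratio 1.04, interval 0.956 to 1.13), whereas Rpl7 was 1262 and 1814 FPKM (ratio 1.44). The partners of the paralogs that were barely detected, Rpl3, Rpl10 and Rpl39, had ratios of 1.42, 1.62 and 1.64. Rescaled to equal totals, Rpl7l1 turned to a ratio of 0.857.

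The 19 members on the list of Diamond-Blackfan anemia genes were all higher in ESAM-null, 15 of them (78.9%) at least 1.5-fold, with a median log2 ratio of 0.70. Of the 62 other members that reached 1 FPKM, 61 were higher and 42 (67.7%) at least 1.5-fold higher, with a median of 0.69. Among all genes with a mean of at least 100 FPKM the shares were 83.9% and 23.7%. A higher value was thus not particular to the genes on the list. Rps19, the gene most often mutated in the disease, had a ratio of 1.60 (interval 1.56 to 1.63). Rps26 was 1766 FPKM in WT against 2907 FPKM in ESAM-null (ratio 1.65), and Rpl35a was 1373 and 2249.6 FPKM (ratio 1.64). Rpl15 had the smallest ratio on the list (1.36) and Rps24 the largest. Rpl26 had a ratio of 1.5 with a wide interval (1.05 to 2.22) and about 48 reads in WT.

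The ratios were tightly grouped. Over the 77 members with a mean of at least 100 FPKM, all were higher in ESAM-null, against 83.9% of the 1332 genes at that level, and 54 (70.1%) were at least 1.5-fold higher, against 23.7%. Their log2 ratios ran from 0.055 to 0.97 with an SD of 0.15 across genes, whereas the counting intervals spanned 0.094 on the same scale in the median member. The other 1255 genes at that level had a median log2 ratio of 0.33. Of the 77 members, 62 lay above the upper quartile of these genes, and 11.8% of these genes had a ratio at or above the members' median. Centred on the median of these genes, a choice made after seeing the data, the members had a median log2 ratio of 0.37 and 3 of them were at least 1.5-fold higher. The share of other genes on that scale is not given.

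**Figure D2:**
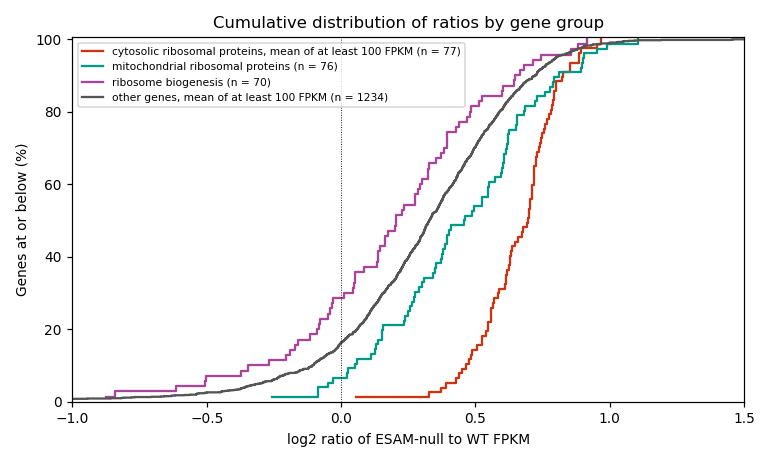
Cumulative percentage of genes (vertical axis) at or below a log2 ratio of FPKM, ESAM-null over WT (horizontal axis, drawn from -1 to 1.5) for 4 gene groups. The 1234 other genes drawn are those above 0 in both libraries. The curve of the 77 cytosolic ribosomal protein genes is the steepest and lies furthest to the right over its middle part, with a median of 0.70 against 0.33 for other abundant genes.

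Part of the distance from other genes went with transcript length and level. Among other genes with a mean of at least 100 FPKM, the median log2 ratio was 0.45 for the 563 with transcripts of 300 to under 1000 bases and 0.23 for the 630 with transcripts of at least 1000 bases. Among the members the corresponding medians were 0.70 (62 genes) and 0.63 (14 genes). Among genes with a mean of at least 500 FPKM and transcripts of 300 to under 1000 bases, the gap was smaller. The 120 other genes had a median of 0.55 and an SD of 0.23, and the 60 members a median of 0.70 and an SD of 0.13. Level was still not matched, with a median WT level of 693 FPKM for the other genes and 1388 FPKM for the members. Of these 120 genes, 118 (98.3%) were higher in ESAM-null and 53 (44.2%) at least 1.5-fold higher. All 60 members were higher, 43 (71.7%) of them at least 1.5-fold. A higher value in ESAM-null was thus not particular to the members. The part of length and level in the members' difference was not tested further. Members lay on 19 chromosomes, the 14 on chromosome 7 had a median log2 ratio of 0.65, and the 7 on chromosome 9, which carries Esam, had a median log2 ratio of 0.63.

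**Figure D3:**
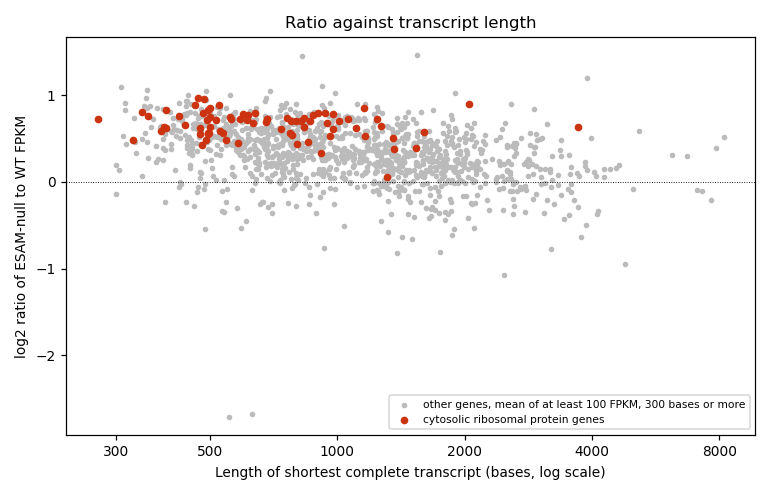
The log2 ratio of FPKM, ESAM-null over WT (vertical axis) against the length of the shortest complete annotated transcript (horizontal log axis, bases) for the 77 members (red) and other genes (grey) with a mean of at least 100 FPKM. Grey points drift downward with length (Spearman correlation -0.34 over 1226 genes), and red points stay mostly in the upper part of the grey cloud.

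Many of these genes have processed pseudogenes with nearly the same sequence, and the treatment of reads with several matches was not given in the sources used here. For each member, the share of 75-base stretches, the read length, that also occur in another annotated gene was therefore counted. The median share was 48.1%, 38 of 83 members shared at least 50%, and the largest share was 91.9% for Rpl10. The median log2 ratio was 0.69 for the 38 members that shared at least 50%, 0.70 for the 43 below 50%, and 0.62 for the 12 below 10%. Rps9 and Rps3 shared no stretch with another gene, and their ratios were 1.35 and 1.40. Both ratios lay below the median ratio of 1.47 of other genes with a mean of at least 500 FPKM and transcripts of 300 to under 1000 bases. Only exact matches were counted, so copies with single base differences are not seen in these shares. The part of multiply mapped reads in the ratios was not tested. The levels of genes such as Rpl10, Rps10 (90.1% shared) and Rpl36a (84.6%) are uncertain.

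**Figure D4:**
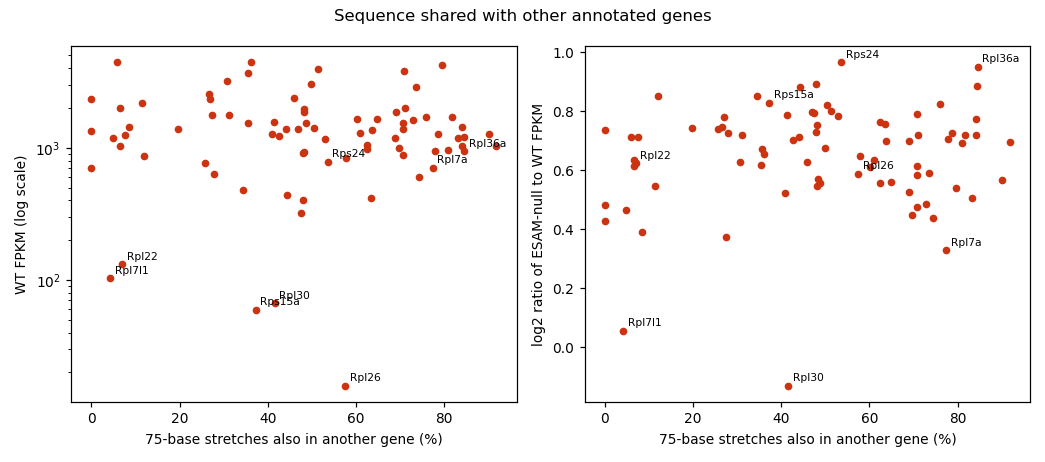
WT FPKM (left, log axis) and log2 ratio of FPKM, ESAM-null over WT (right), against the percentage of 75-base stretches of each member that also occur in another annotated gene, for members with at least 1 FPKM in both libraries. Neither level (Spearman correlation -0.047) nor ratio (0.055) followed the shared percentage over the 77 members with a mean of at least 100 FPKM.

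Ribosomal proteins outside the symbol rule were higher in ESAM-null too. Fau, which encodes a ubiquitin-like protein fused to a small subunit protein, was 1089 FPKM in WT against 1595 FPKM in ESAM-null (ratio 1.46). Gnb2l1, which encodes the scaffold RACK1 of the small subunit, was 801 and 1345 FPKM (ratio 1.68), and Rpl36al was 846 and 1467 FPKM (ratio 1.73).

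Other genes of translation differed less than the ribosomal proteins. The lists were not matched to the members in level or transcript length. Median WT levels were 442 FPKM for elongation factors and 112 FPKM for initiation factors, against 1275 FPKM for the members. Of 6 elongation factor genes 5 were higher in ESAM-null, and the median log2 ratio was 0.51. Eef1a1, which delivers aminoacyl-tRNA, was 2798 and 3589 FPKM (ratio 1.28). Eef2, which drives translocation, was 420.3 and 416 FPKM (ratio 0.990, interval 0.965 to 1.02). Of 34 initiation factor genes 28 were higher, 6 of them (17.6%) at least 1.5-fold, against 17.4% of all genes, with a median of 0.36. Eif4g1, the scaffold of the cap-binding complex, was the initiation factor at least 1.5-fold lower, at 42.9 and 28.4 FPKM. Among 19 other mRNAs known to carry a TOP start 18 were higher, 9 (47.4%) at least 1.5-fold, with a median of 0.55. This was near the values of the 120 other genes with a mean of at least 500 FPKM and transcripts of 300 to under 1000 bases. Of those 120 genes, 98.3% were higher and 44.2% at least 1.5-fold higher, with a median of 0.55. Hnrnpa1, a TOP mRNA that encodes an RNA-binding protein, was past 2-fold at 81.7 and 225 FPKM. These lists share members: Fau, Gnb2l1 and several elongation and initiation factors are also TOP mRNAs.

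Genes that make ribosomes showed no such uniform difference. Their median WT level was 47.9 FPKM, against 1275 FPKM for the members. Other genes with a mean of at least 100 FPKM and transcripts of at least 1000 bases had a median log2 ratio of 0.23. Level and length were not matched to the members, and their part in the contrast was not tested. Of 70 ribosome biogenesis genes 50 were higher in ESAM-null, 11 (15.7%) at least 1.5-fold, against 17.4% of all genes, and 3 were at least 1.5-fold lower, against 21.8%. The median log2 ratio was 0.20 and turned to -0.074 when both totals were set to 1000000. Npm1, a nucleolar chaperone, was 968 and 1552 FPKM (ratio 1.60), whereas Polr1a, the largest subunit of the polymerase that transcribes ribosomal RNA, was 11.6 and 6.31 FPKM (ratio 0.545). Of 76 mitochondrial ribosomal protein genes 71 were higher, 29 (38.2%) at least 1.5-fold, with a median of 0.46. Among all genes with at least 1 FPKM in 1 library the shares were 50% and 17.4%. Among other genes with a mean of at least 100 FPKM and transcripts of 300 to under 1000 bases they were 91.3% and 31.3%, with a median of 0.45. Mrps34 was past 2-fold, at 91.4 and 197 FPKM.

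Regulators of ribosomal protein output were not higher as a group. Their median WT level was 17.6 FPKM, far below that of the members, and level was not matched. Of 14 such genes 5 were higher and 9 lower in ESAM-null, 4 of them at least 1.5-fold, against 21.8% of all genes, and the median log2 ratio was -0.18. Mtor, the kinase that controls TOP mRNA translation, was 4.31 and 1.29 FPKM. That is about 32 and 11 reads by its shortest transcript of 1003 bases (interval of the ratio 0.142 to 0.637). With a longer transcript the same FPKM would stand for more reads and a narrower interval. Mlst8 and Rptor, its partners, were 12.4 and 6.25 FPKM and 5.85 and 3.88 FPKM. Larp1, which binds TOP mRNAs, was 43.9 and 37.0 FPKM. Myc, a transcriptional activator of ribosomal protein genes, was 85.2 and 92.7 FPKM (ratio 1.09, interval 0.995 to 1.19), and Mycn was 137 and 140.2 FPKM (ratio 1.02). Eif4ebp1, an inhibitor of cap-dependent translation, was 217 and 309 FPKM (ratio 1.43), whereas its paralog Eif4ebp2 was 14.1 and 7.53 FPKM (ratio 0.534, interval 0.412 to 0.696).

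**Figure D5:**
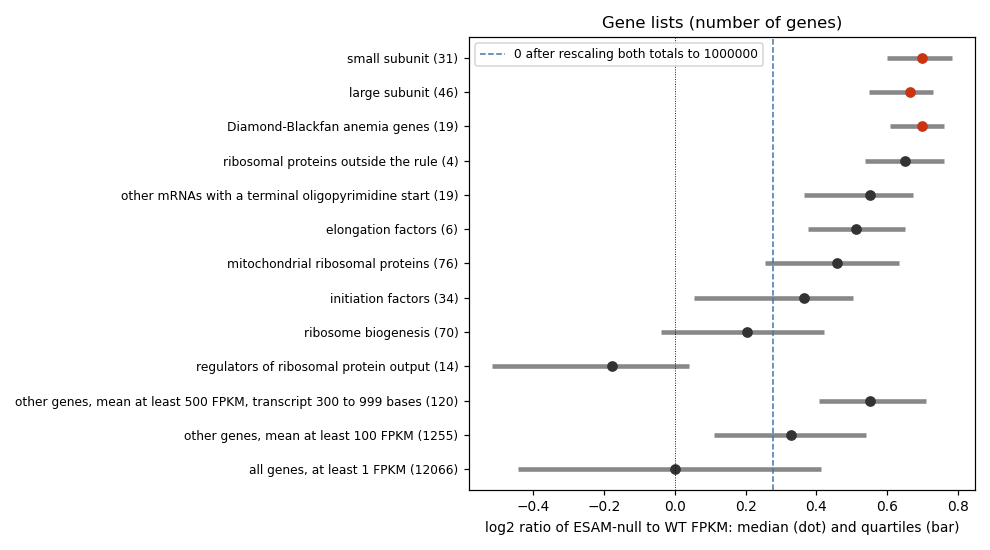
Median (dot) and quartiles (bar) of the log2 ratio of FPKM, ESAM-null over WT, for each gene list, with the number of genes in parentheses and lists of members in red. The dotted line is at 0, and the dashed line at 0.28 is where 0 would lie with both totals set to 1000000. The medians run from 0.70 for the small subunit to -0.18 for the regulators.

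The summed levels of markers of other cells differed between the libraries in both directions. The summed level of 5 erythroid markers was 96.1 FPKM in WT against 119 FPKM in ESAM-null, most of it from Hbb-b1, while Alas2 was 8.08 and 0.282 FPKM. The sums were 257 and 263 FPKM for 5 granulocyte markers, 75.8 and 85.0 FPKM for 5 B cell markers and 83.9 and 94.7 FPKM for 4 megakaryocyte markers. They were 9.55 and 14.2 FPKM for 6 hepatocyte markers, 13.8 and 7.01 FPKM for 7 macrophage markers, 24.1 and 16.7 FPKM for 5 endothelial markers and 1.41 and 0.0337 FPKM for 3 T cell markers. Single markers within a list went both ways. The endothelial sum came mostly from Pecam1 (20.8 and 12.1 FPKM), and Kdr (1.33 and 0.780 FPKM) and Lyve1 (0.884 and 0 FPKM) were also lower. Cdh5 (0.954 and 3.33 FPKM) and Stab2 (0.0401 and 0.492 FPKM) were higher in ESAM-null. In ESAM-null, 4 of the hepatocyte markers, Alb among them, and 5 of the macrophage markers were at 0, and Pax5 and Elane were at 0 in both libraries. The part of these cells in the members' difference was not tested.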

How the data were processed

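RNA-seq of LSK CD48- FL cells was analysed with 1 library each from WT and ESAM-null fetuses. cDNA was made with SMART-Seq v4 and sequenced as single-end reads of 75 bp. FPKM values per gene symbol are what the authors deposited, and no other unit was used. For the alignment to mm10, the submitters' processing notes list Cuffnorm 2.2.1, TopHat2 2.0.13, SAMtools 0.1.19 and Bowtie2 2.2.3, with no order. The annotation, the normalization setting of the libraries and the treatment of multiply mapped reads were not given in the sources used here.

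Ratios were FPKM in ESAM-null divided by FPKM in WT, with no pseudocount, for genes with at least 1 FPKM in 1 library, and lists were described by counts and medians. Reads per gene were approximated from FPKM, the length of the shortest complete transcript in GENCODE M21 (GRCm38) and the value of 1 read, with an assumed fragment length of 200 bp (SD 80 bp). Among low genes, the approximate read number was within 0.1 of a whole number for 85.9% in the WT and 84.8% in the ESAM-null library. The value of 1 read was chosen for the best such fit on these same genes, so these percentages do not check it. Fragment lengths of 150 and 300 bp gave 83.1% and 83.8% in WT and 81.8% and 83.8% in ESAM-null, so they do not single out 200 bp. Intervals are exact at 95% and leave out error other than counting, since reads from PCR copies do not count molecules. The fold and interval calculation was tested on simulated read counts of equal depth. The step from FPKM to reads was not part of that test. Because each group is 1 library, no test between groups was made.

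Named members were the 8 highest and 6 lowest by mean FPKM, the 8 largest ratios in each direction, those past 2-fold or at 0, the paralogs with their partners and the Diamond-Blackfan genes. Of other lists, up to 6 genes with the highest FPKM or past 2-fold were to be named. Rps6, Rps4x, Rps27a, Rpsa, Rps3, Rps10, the stalk genes and the genes of regulation and biogenesis were in part named for their function or after their values were seen. Some genes are counted but not reported here by name. The members and all lists were chosen with earlier results of these data known. Promoter sequences are from RefSeq on GRCm38.p6. Alternatives were other filters, pseudocounts, scalings, fragment lengths and subsets of members. The software was Python 3.11.15 with matplotlib 3.10.9, scipy 1.17.1, pandas 2.3.3 and numpy 2.4.6.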

Additional observations from a re-analysis of the deposited data

How the results depend on the processing

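No replicate exists, so the values describe these libraries only, and the sources give neither the normalization setting nor the handling of multiply mapped reads. Depth limits the members under 100 FPKM, and read numbers rest on an assumed fragment length and on the shortest annotated transcript. No paired analysis was possible because each genotype has 1 library. Scaling moved every log2 ratio by the same constant. A pseudocount of 0.1 or 1 FPKM lowered the ratio of Rpl39l from 12.9 to 10.3 or 4.11. With both totals set to 1000000, the median log2 ratio was 0.42 for all members, 0.42 for the small and 0.39 for the large subunit, the ratio of summed FPKM was 1.30, 6 members were at least 1.5-fold higher and 2 were lower. Reversed on this scale were Rpl7l1 (ratio 0.857) and the median of ribosome biogenesis (-0.074). With the members left out of the totals, these medians were 0.50, 0.51 and 0.47, the ratio 1.38, the counts 18 and 2, and Rpl7l1 had a ratio of 0.908. In alternatives chosen after seeing the data, leaving genes under 300 bases out of the totals gave a median of 0.34, a ratio of 1.24 and 3 members at least 1.5-fold higher, and centring on other abundant genes gave 0.37 and 3. Shares of all genes at 1.5-fold are given on the original scale only. Median, upper quartile and trimmed mean scaling moved log2 ratios by -0.022, -0.042 and -0.018. Members past 2-fold numbered 2 with every value above 0 kept, which adds Rpl3l and raises the count of lower members to 2, and 0 with a filter of 5 FPKM or of 1 FPKM in both libraries, which drops Rpl39l. Genes past 2-fold then numbered 4607, 982 and 1198 in place of 2435.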

Other observations

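Rows of 6 ribosomal protein pseudogenes and of Rps4y2, a second copy of Rps4x, stood in the files beside the members. All 6 pseudogene rows were higher in ESAM-null, and the median log2 ratio was 0.95, which rests on few reads for most of them. Rpl34-ps1 was 144 FPKM in WT against 197 FPKM in ESAM-null (ratio 1.37, interval 1.15 to 1.64), next to 1551 and 2679 FPKM for Rpl34 itself. Rps15a-ps6 was 16.9 and 24.8 FPKM (ratio 1.47, interval 0.920 to 2.38), and Rps19-ps3 was 5.35 and 8.50 FPKM. Rps4y2 was 176 and 288 FPKM (ratio 1.64, interval 1.51 to 1.77), close to the ratio of Rps4x. Whether these values come from transcripts of the copies or from reads of the parent genes was not tested.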
